A study of Homo sapiens with 6 samples.

Results

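The cancer-testis antigen families are X-linked gene families named MAGE-A, MAGE-B, MAGE-C, GAGE, PAGE, XAGE, SSX, CT45 and CTAG. Members were found by symbol, as every gene whose name began with MAGEA, MAGEB, MAGEC, XAGE, PAGE, GAGE, CT45A, CTAG, or SSX and a digit. The search found 96 of the 26485 gene symbols, of which 83 belonged to the 9 families and lay on chromosome X. The other 13 matched the search but were not counted as members of the 9 families. They were 10 CTAGE genes and pseudogenes, SSX2IP, an antisense RNA of MAGEA8 and a readthrough of MAGEA10 and MAGEA5. A gene was analysed where it reached 1 TPM (a length-corrected transcript level scaled to the same total in every library) in at least 2 of the 6 libraries. Of the 83 family members 16 did so, with 8 of the 13 other symbols.

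Cancer-testis genes are active in the germ line of the testis and, for some, in placenta, and are silent in most other adult tissues. In somatic cells their promoters are kept shut by DNA methylation, and many tumours, lung cancers among them, switch some of them on again. Peptides of these proteins shown on HLA molecules can be recognised by T cells, which is why MAGE-A3, MAGE-A4 and NY-ESO-1 (encoded by CTAG1A and CTAG1B) have been targets of vaccines and T-cell therapies. MAGE proteins also bind RING ubiquitin ligases and steer them to substrates.

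Messenger RNA was measured in PC9-AMG, PC9-BrM4 and PC9, with 2 libraries per line and no drug or other agent named in the labels beyond conventional culture. PC9 comes from a human lung adenocarcinoma and carries an activating EGFR mutation. PC9-BrM4 has been described elsewhere as a brain-metastatic derivative of PC9, although the labels give only its name, and the sources used here do not say what AMG stands for or whether either subline is a clone. Whether the 2 libraries of a line came from separate cultures is not stated. The p-values rest on the spread between the 2 libraries of a line, pooled over the 3 lines and moderated by limma over all tested genes. That spread may therefore be no more than technical. Aligned sequence came to 3.93 and 4.39 gigabases in PC9-AMG, 3.13 and 3.84 in PC9-BrM4, against 3.42 and 2.66 in PC9. All 5 epithelial markers (EPCAM, CDH1, KRT8, KRT18 and KRT19) were tested and present. KRT8 had 4615 and 4870 TPM in PC9-AMG, 3085 and 3119 in PC9-BrM4, against 3721 and 3748 in PC9. Of the 5 markers 3 rose and 1 fell in PC9-AMG against PC9, and 1 rose and 3 fell in PC9-BrM4 against PC9. Over all 14195 tested genes, 55.5% and 46.6% were called in these comparisons, with a limma adjusted p under 0.05. In contrast, the 5 lung lineage markers summed to 0.128 to 1.04 TPM per library and none was tested, so the lung label is not borne out by NKX2-1, NAPSA, the surfactant genes or FOXA2. Germ-cell markers summed to 0.480 and 0.351 TPM in PC9-AMG, 0.753 and 0.411 in PC9-BrM4, against 0.272 and 0.288 in PC9, and 4 of the 9 were at 0 in all 6 libraries. The 4 Sertoli and Leydig cell markers summed to 5.44 and 5.72 TPM in PC9-AMG, 6.89 and 7.44 in PC9-BrM4, against 5.96 and 6.23 in PC9; AMH was higher in PC9-AMG (log2 0.40), and in PC9-BrM4 INHA was higher (0.62) and INSL3 lower (-0.51). Leukocyte markers summed to at most 0.802 TPM. The 4 fibroblast and endothelial markers summed to 16.1 and 16.5 TPM in PC9-AMG, 4.77 and 5.40 in PC9-BrM4, against 6.79 and 6.93 in PC9, mostly from COL1A1. The part of these marker differences in the results was not tested. In bulk RNA a smaller share of expressing cells and less RNA per cell cannot be told apart.

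Promoter sequences of MAGEA3, MAGEA6 and the members with the largest rises in PC9-AMG are shown here because methylation of CpG dinucleotides in this window is the textbook switch of the families; methylation itself was not measured. RefSeq windows on GRCh38.p14 were found for 14 of the 16 analysed family members. The 250 bases before the RefSeq start are given 5′ to 3′ with each CpG in capitals. Some deposited gene models start inside the window, whose last bases then lie within the model. These were 42 bases for MAGEA3, 27 for MAGEA6, 38 for MAGEC1 and 11 for XAGE2. Any CpG in those bases is included in the numbers below. MAGEA3 and MAGEA6, 2 copies on opposite strands, had the same 250 bases. The other 4 are MAGEA4, MAGEC1, MAGEC2 and XAGE2, and the 2 members with no window are CTAG1A and CTAG2.
MAGEA3 (the same in MAGEA6), chrX:152698544-152698793, plus strand: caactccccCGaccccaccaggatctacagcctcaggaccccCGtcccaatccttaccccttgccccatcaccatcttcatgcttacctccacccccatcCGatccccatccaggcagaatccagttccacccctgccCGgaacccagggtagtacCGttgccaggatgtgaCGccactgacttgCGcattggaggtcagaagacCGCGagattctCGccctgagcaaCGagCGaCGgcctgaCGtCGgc
MAGEA4, chrX:151912639-151912888, plus strand: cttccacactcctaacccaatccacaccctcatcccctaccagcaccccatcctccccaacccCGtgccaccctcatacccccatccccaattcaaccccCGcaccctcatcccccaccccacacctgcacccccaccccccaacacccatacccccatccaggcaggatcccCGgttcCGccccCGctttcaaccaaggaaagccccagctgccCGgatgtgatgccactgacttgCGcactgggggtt
MAGEC1, chrX:141903644-141903893, plus strand: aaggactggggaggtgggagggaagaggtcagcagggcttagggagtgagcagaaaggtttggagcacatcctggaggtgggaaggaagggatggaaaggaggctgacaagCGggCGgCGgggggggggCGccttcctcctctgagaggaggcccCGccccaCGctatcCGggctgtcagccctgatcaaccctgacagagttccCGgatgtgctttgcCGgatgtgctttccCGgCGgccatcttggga
MAGEC2, chrX:142205291-142205540, minus strand: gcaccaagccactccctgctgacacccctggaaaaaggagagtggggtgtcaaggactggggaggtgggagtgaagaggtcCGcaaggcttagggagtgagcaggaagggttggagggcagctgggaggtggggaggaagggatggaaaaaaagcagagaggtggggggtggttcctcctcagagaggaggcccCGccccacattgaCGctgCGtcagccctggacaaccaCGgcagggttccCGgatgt
XAGE2, chrX:52368771-52369020, plus strand: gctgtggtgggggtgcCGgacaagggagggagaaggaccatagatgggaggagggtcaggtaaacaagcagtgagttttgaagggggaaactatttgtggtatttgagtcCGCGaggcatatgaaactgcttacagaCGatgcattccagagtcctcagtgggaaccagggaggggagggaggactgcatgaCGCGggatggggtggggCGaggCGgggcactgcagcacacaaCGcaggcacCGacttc

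The windows held 15 CpG in MAGEA3 and MAGEA6, 7 in MAGEA4, 11 in MAGEC1, 6 in MAGEC2 and 10 in XAGE2, beside a median of 11 over 35116 RefSeq promoter windows of the same length. The letters GGAA or their complement TTCC, the core of ETS factor motifs, were counted so that both strands were covered, and matches of the 2 cannot overlap each other. They occurred 2 times before MAGEA3 and MAGEA6, 3 times before MAGEA4 and XAGE2, 7 times before MAGEC1 and 6 times before MAGEC2. Among all windows the median was 3, 55.1% held 3 or more, 9.14% held 6 or more and 4.10% held 7 or more. These matches describe the letters only.

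Most of the family transcript came from a few MAGE-A genes that were expressed in all 3 lines. All 83 members together summed to 957 and 980 TPM in PC9-AMG, 1039 and 1021 in PC9-BrM4, against 777 and 794 in PC9. MAGEA2, MAGEA2B, MAGEA3, MAGEA6 and MAGEA12 made up 86.5% and 85.8% of that sum in PC9-AMG, 89.0% and 89.5% in PC9-BrM4, against 90.6% and 91.6% in PC9. MAGEA3 ranked between 411 and 597 among all genes of a library, and MAGEA6 between 471 and 574. By contrast MAGEA11, SSX4B and SSX7 stayed under 2 TPM in all 6 libraries.

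**Figure D1:**
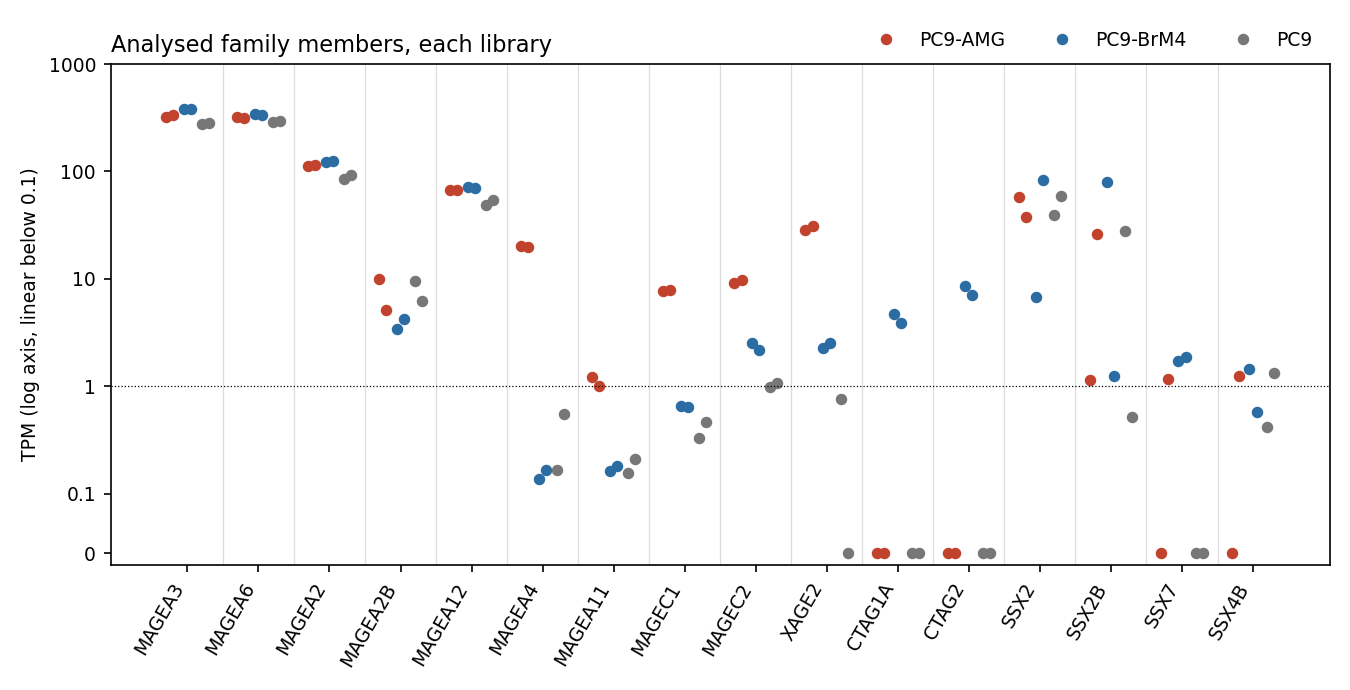
TPM of the 16 analysed family members in each library (log axis, linear below 0.1 TPM), with PC9-AMG in red, PC9-BrM4 in blue and PC9 in grey; each point is a library and the dotted line is 1 TPM. MAGEA3 and MAGEA6 lie between 275 and 384 TPM in all lines, MAGEA4 reaches 20.4 and 19.8 TPM in PC9-AMG against at most 0.548 elsewhere, and CTAG2 is above 0 in the PC9-BrM4 libraries only.

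PC9-AMG differed from PC9 most in 4 genes: MAGEA4, XAGE2, MAGEC1 and MAGEC2 all rose. MAGEA4 had 20.4 and 19.8 TPM in PC9-AMG, against 0.165 and 0.548 TPM in PC9. XAGE2 had 28.5 and 30.8 TPM in PC9-AMG, against 0.766 and 0 TPM in PC9. For both genes the PC9-AMG libraries stood far above all others. On the log2(TPM + 1) scale, which understates changes of low genes, MAGEA4 rose by 3.97 ± 0.14 (SE; limma adjusted p = 3.44e-06). XAGE2 rose by 4.53 ± 0.23 on that scale (limma adjusted p = 1.11e-05). MAGEA4 passed the filter on low values through PC9-AMG alone and so had to differ, which leaves its p-value as a description. XAGE2 encodes a small protein of the GAGE-like XAGE family, and MAGE-A4 is a target of engineered T-cell receptors.

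The MAGE-C genes, whose products carry the MAGE homology domain and of which MAGE-C2 binds TRIM28, both rose. MAGEC1 had 7.64 and 7.85 TPM in PC9-AMG, against 0.331 and 0.466 TPM in PC9. MAGEC2 had 9.24 and 9.70 TPM in PC9-AMG, against 0.977 and 1.08 TPM in PC9. The groups did not overlap for either gene. The log2 rise was 2.65 ± 0.11 for MAGEC1 (limma adjusted p = 4.43e-06) and 2.37 ± 0.10 for MAGEC2 (limma adjusted p = 5.86e-06). Their sum averaged 17.2 ± 0.47 TPM in PC9-AMG and 1.43 ± 0.17 TPM in PC9 (SD, n = 2 each), a ratio of 12.1. MAGEA11, a coregulator of the androgen receptor, had 1.21 and 1.01 TPM in PC9-AMG, against 0.155 and 0.210 TPM in PC9. It rose by 0.83 ± 0.12 on the log2 scale (limma adjusted p = 0.000944), a size that ran from 0.45 to 2.101 over the alternative settings. MAGEC1 and MAGEA11 passed the filter on low values through PC9-AMG alone and so had to differ, which leaves their p-values as descriptions.

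The abundant MAGE-A genes rose by less. MAGEA3 had 321 and 338 TPM in PC9-AMG, against 275 and 280 TPM in PC9, a log2 rise of 0.25 ± 0.04 (limma adjusted p = 0.00184). MAGEA2 had 112 and 114 TPM in PC9-AMG, against 84.6 and 92.6 TPM in PC9, and rose by 0.35 ± 0.05. MAGEA12 had 66.7 and 67.5 TPM in PC9-AMG, against 49.1 and 53.8 TPM in PC9, and rose by 0.38 ± 0.06. The limma adjusted p was 0.00130 for MAGEA2 and 0.000943 for MAGEA12, so these 3 MAGE-A genes moved beyond the spread between libraries and by smaller log2 values than MAGEA4, which lies in the same stretch of chromosome X. MAGEA6, with 318 and 316 TPM in PC9-AMG against 285 and 295 TPM in PC9, passed narrowly at 0.13 ± 0.04 (limma adjusted p = 0.0250). That call ended in 7 of 16 alternative settings, among them the removal of any 1 of the 4 libraries (limma adjusted p from 0.0248 to 0.172 over all 16). MAGEA2B had 9.88 and 5.08 TPM in PC9-AMG, against 9.50 and 6.22 TPM in PC9, with overlapping values.

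In all, 9 of the 16 family members rose in PC9-AMG and 0 fell, with a limma adjusted p under 0.05. Over all 14195 genes tested in this comparison 55.5% were called, 27.8% higher and 27.7% lower. No overlap between libraries was seen for 9 members, and for 79.8% of all genes. The median log2 difference of the 16 was 0.30, beside -0.01 over all tested genes. These counts describe the members that passed the filter on low values, and a gene that passed through PC9-AMG alone had to differ, which holds for 3 of the 9 called (MAGEA4, MAGEC1 and MAGEA11). Of the 4 SSX genes 0 were called, and CTAG1A and CTAG2 were listed at 0 in both lines. SSX7 had 0 and 1.17 TPM in PC9-AMG and was listed at 0 in both PC9 libraries (limma adjusted p = 0.161), and it passed, at 0.00272, once PC9-AMG replicate 1 was left out.

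PC9-BrM4 differed from PC9 most in CTAG1A and CTAG2, which encode NY-ESO-1 and the related LAGE-1. CTAG2 had 8.54 and 7.11 TPM in PC9-BrM4 and was listed at 0 in both PC9 libraries. CTAG1A had 4.66 and 3.85 TPM in PC9-BrM4 and was likewise listed at 0 in PC9. Both genes were at 0 in the PC9-AMG libraries too, so the signal stood in 2 of the 6 libraries. The limma adjusted p against PC9 was 4.16e-06 for CTAG2 and 1.26e-05 for CTAG1A, and no fold is given against values of 0. Both passed the filter on low values through PC9-BrM4 alone and so had to differ, which leaves these p-values as a description. Mean read coverage of CTAG2 was 10.4 and 10.1 in the PC9-BrM4 libraries. The tables placed CTAG1A at 2 loci on opposite strands, X:154585154-154586816 and X:154617609-154619271 on hg38, both of which also had a line for CTAG1B at 0. The first locus held 1.57 and 1.36 TPM in PC9-BrM4 and the other 3.09 and 2.49 TPM, so which copy was active is uncertain.

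Of the abundant MAGE-A genes 4 also rose in PC9-BrM4. MAGEA3 had 384 and 378 TPM in PC9-BrM4, against 275 and 280 TPM in PC9, and rose by 0.45 ± 0.04 on the log2 scale (limma adjusted p = 0.000149). MAGEA2 had 122 and 126 TPM in PC9-BrM4, against 84.6 and 92.6 TPM in PC9, and rose by 0.48 ± 0.05 (limma adjusted p = 0.000369). MAGEA12 had 71.2 and 70.7 TPM in PC9-BrM4, against 49.1 and 53.8 TPM in PC9, and rose by 0.46 ± 0.06 (limma adjusted p = 0.000498). None of these 3 genes overlapped between the lines. MAGEA6 had 344 and 335 TPM in PC9-BrM4, against 285 and 295 TPM in PC9, and rose by 0.23 ± 0.04 (limma adjusted p = 0.00263). MAGEA2B, a copy of MAGEA2, was called lower instead, at 3.39 and 4.19 TPM in PC9-BrM4 against 9.50 and 6.22 TPM in PC9. Its log2 difference was -0.87 ± 0.28 (limma adjusted p = 0.0354), a call that 5 of 16 alternative settings ended, 3 of them by leaving out either PC9-BrM4 library or PC9 replicate 1 (adjusted p from 0.0160 to 0.259 over all 16). Added up, MAGEA2 and MAGEA2B came to 125 and 130 TPM in PC9-BrM4, against 94.1 and 98.8 TPM in PC9.

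Of the genes that led in PC9-AMG, MAGEC2 and XAGE2 were also called in PC9-BrM4, at lower levels. MAGEC2 had 2.51 and 2.17 TPM in PC9-BrM4, against 0.977 and 1.08 TPM in PC9, a log2 rise of 0.72 ± 0.10 (limma adjusted p = 0.00111). XAGE2 had 2.29 and 2.50 TPM in PC9-BrM4, against 0.766 and 0 TPM in PC9, and rose by 1.35 ± 0.23 (limma adjusted p = 0.00257). Without the filter on low values XAGE2 missed the threshold at 0.0728, the highest of its 16 alternatives, which reached down to 0.000152, and with a pseudocount of 0.1 its log2 difference was 3.08. SSX7 had 1.72 and 1.88 TPM in PC9-BrM4 and was listed at 0 in both PC9 libraries (limma adjusted p = 0.00643), a call that also ended without the filter, at 0.109, with the lowest of 15 alternatives at 0.000580. The other 2 genes that led in PC9-AMG were not called here. MAGEC1 had 0.649 and 0.634 TPM in PC9-BrM4, against 0.331 and 0.466 TPM in PC9 (log2 0.23 ± 0.11, limma adjusted p = 0.113, and from 0.0254 to 0.371 over its alternatives, of which 2 passed). MAGEA4 had 0.135 and 0.168 TPM in PC9-BrM4, against 0.165 and 0.548 TPM in PC9 (limma adjusted p = 0.244). Without PC9 replicate 1 MAGEA4 passed as lower, at -0.43 (limma adjusted p = 0.0393, and up to 0.930 under other settings). MAGEA11 had 0.163 and 0.180 TPM in PC9-BrM4, against 0.155 and 0.210 TPM in PC9, with overlapping values.

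The counts in PC9-BrM4 were 9 members higher and 1 lower of 16, where 46.6% of all tested genes were called, 23.4% higher and 23.1% lower. Libraries did not overlap for 11 members and for 75.2% of all genes. The median log2 difference was 0.46 over the 16 members, beside -0.00160 over all genes. Of the 10 called, CTAG1A and CTAG2 had to differ because they passed the filter through PC9-BrM4 alone. SSX7 would not have passed without the PC9-BrM4 libraries either, so the filter favoured its call as well. The count and the median are therefore descriptions. Both sublines were set against the same 2 PC9 libraries, so the 2 sets of rises are not independent of each other.

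**Figure D2:**
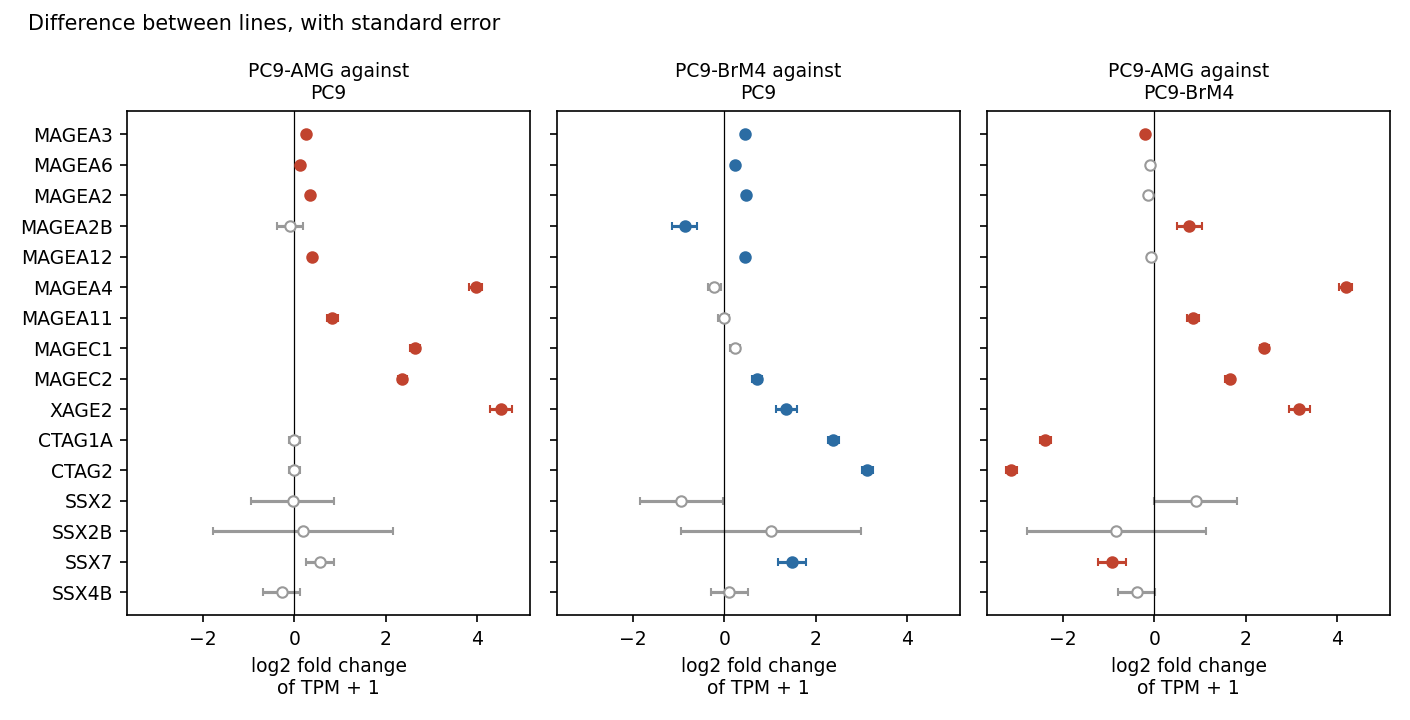
Log2 fold change of TPM + 1 for the 16 analysed family members in the 3 comparisons, with bars for 1 standard error from limma; filled points passed an adjusted p of 0.05 and open points did not. MAGEA4 (3.97) and XAGE2 (4.53) lead in PC9-AMG against PC9, and values of CTAG1A and CTAG2 rest on libraries listed at 0, so their plotted size depends on the pseudocount.

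Set directly against each other, the sublines showed opposite leading genes. MAGEA4 had 20.4 and 19.8 TPM in PC9-AMG, against 0.135 and 0.168 TPM in PC9-BrM4, a log2 difference of 4.19 ± 0.14 (limma adjusted p = 1.21e-06). XAGE2 differed by 3.18 ± 0.23 (limma adjusted p = 2.95e-05), with 28.5 and 30.8 TPM in PC9-AMG against 2.29 and 2.50 TPM in PC9-BrM4. MAGEC1 differed by 2.41 ± 0.11, MAGEC2 by 1.65 ± 0.10 and MAGEA11 by 0.85 ± 0.12, all higher in PC9-AMG (limma adjusted p = 3.54e-06, 1.46e-05 and 0.000784). CTAG2 and CTAG1A, listed at 0 in PC9-AMG, were lower there (limma adjusted p = 2.09e-06 and 6.78e-06). MAGEA3 was lower too, with 321 and 338 TPM in PC9-AMG against 384 and 378 TPM in PC9-BrM4, a log2 difference of -0.21 ± 0.04 (limma adjusted p = 0.00390). SSX7 at 0 and 1.17 TPM in PC9-AMG against 1.72 and 1.88 TPM in PC9-BrM4 was called lower (limma adjusted p = 0.0363, from 0.00100 to 0.242 over its alternatives). MAGEA2B was called higher, at 0.77 ± 0.28 (limma adjusted p = 0.0459, from 0.0106 to 0.288 over its alternatives). Each of these last 2 calls ended in 6 settings, 3 of them by leaving out PC9-AMG replicate 1 or either PC9-BrM4 library.

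MAGEA2, MAGEA6 and MAGEA12 were not called between the sublines. MAGEA2 had 112 and 114 TPM in PC9-AMG against 122 and 126 TPM in PC9-BrM4 (log2 -0.13 ± 0.05, limma adjusted p = 0.0664). MAGEA6 had 318 and 316 TPM in PC9-AMG against 344 and 335 TPM in PC9-BrM4 (log2 -0.10 ± 0.04, limma adjusted p = 0.0647). The count between the sublines was 6 higher and 4 lower in PC9-AMG of 16 members, where 56.1% of all genes were called, 28.1% higher and 28.0% lower. Of these 10 called members 5 had passed the filter through 1 of the sublines alone and had to differ. They were MAGEA4, MAGEC1 and MAGEA11 through PC9-AMG, and CTAG1A and CTAG2 through PC9-BrM4. The filter favoured the call of SSX7 too, since SSX7 would not have passed without the PC9-BrM4 libraries. Libraries did not overlap for 13 members and for 77.5% of all genes.

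How far a single copy can be read depends on how much of its transcript is shared. Every stretch of 75 bases was taken from the longest coding transcript of each gene in the GENCODE annotation (release 29) and looked for in all other genes; the read length is not given, and 75 was chosen after the data were seen. MAGEC1, MAGEC2, MAGEA11 and XAGE2 shared none (100% of stretches in no other gene). MAGEA12 had 99.8% and MAGEA4 99.4% of its stretches to itself. MAGEA3 and MAGEA6 were 98.6% identical, with 25 differences over 1762 bases, and had 57.8% and 58.0% of their stretches to themselves. Their sum was 639 and 655 TPM in PC9-AMG, 729 and 713 in PC9-BrM4, against 561 and 575 in PC9. CTAG1A had 13.2% and CTAG2 64.6% of stretches to themselves, since CTAG1A shares 86.8% with CTAG1B. SSX7 had 57.8% of its stretches to itself and shared 39.6% with SSX2B, so its low values are uncertain as well. MAGEA2 had 0.923% and MAGEA2B, SSX2, SSX2B and SSX4B 0%, so reads cannot assign these genes apart.

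**Figure D3:**
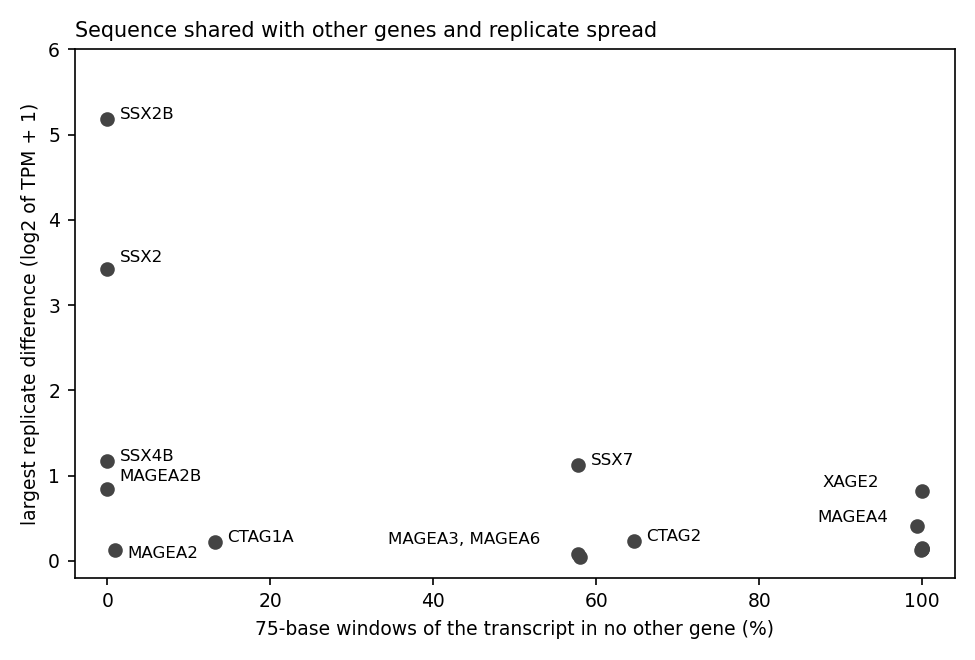
Share of a transcript's 75-base stretches found in no other gene (x axis, %) and the largest difference between the 2 libraries of a line (y axis, log2 of TPM + 1) for the 16 analysed family members. SSX2B (5.18) and SSX2 (3.43), with 0% to themselves, differ most between replicates, while MAGEA3 and MAGEA6 differ by at most 0.0741. Other points go the other way: MAGEA2 (0.923%) differs by 0.128, while XAGE2 (100%) differs by 0.821 and MAGEA4 (99.4%) by 0.410.

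SSX2 and SSX2B, transcriptional repressors whose gene family is fused to SS18 in synovial sarcoma, show this limit. SSX2 was listed at 57.7 and 38.0 TPM in PC9-AMG, 6.77 and 82.6 TPM in PC9-BrM4, and 38.9 and 59.3 TPM in PC9. SSX2B was listed at 1.14 and 25.9 TPM in PC9-AMG, 80.2 and 1.24 TPM in PC9-BrM4, and 28.0 and 0.517 TPM in PC9. Replicates of a line disagreed and mirrored each other between the copies, which have identical transcripts. The tables gave both symbols lines at both loci. The minus-strand locus summed to 36.4 and 36.1 TPM in PC9-AMG, 47.6 and 49.1 in PC9-BrM4, against 36.5 and 35.5 in PC9. At the plus-strand locus the sum was 22.4 and 27.8 TPM in PC9-AMG, 39.4 and 34.8 in PC9-BrM4, against 30.5 and 24.3 in PC9. The sum of both symbols came to 58.8 and 63.9 TPM in PC9-AMG, 87.0 and 83.9 in PC9-BrM4, against 67.0 and 59.8 in PC9. Summed, both PC9-BrM4 libraries lay above the other 4, while neither symbol alone was called in any comparison. The log2 difference of SSX2 depended on single libraries. Without PC9-BrM4 replicate 2 it was -2.66 in PC9-BrM4 against PC9 and 2.62 in PC9-AMG against PC9-BrM4. Without PC9-BrM4 replicate 1 it stood at 0.77 in PC9-BrM4 against PC9.

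**Figure D4:**
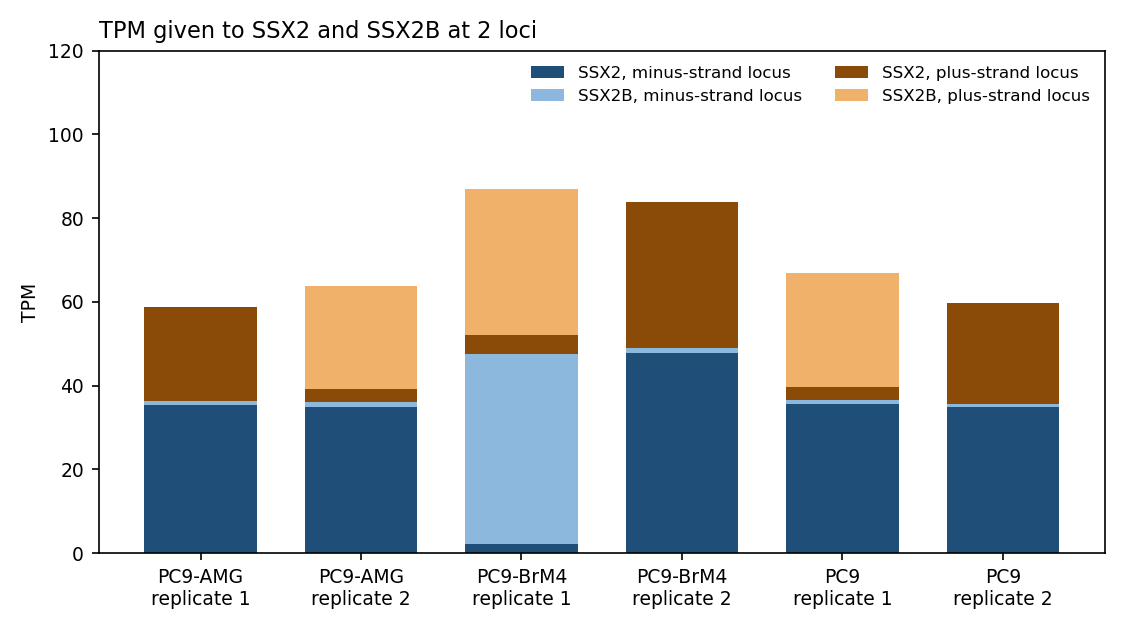
TPM given to SSX2 and SSX2B at the minus-strand locus (blue) and the plus-strand locus (brown) in each library, stacked, with PC9-AMG at the left, PC9-BrM4 in the middle and PC9 at the right. The split between the symbols changes from library to library, while the stacks reach 58.8 to 67.0 TPM in PC9-AMG and PC9 and 83.9 to 87.0 TPM in PC9-BrM4.

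SSX4B, a copy of SSX4, was listed at 0 and 1.25 TPM in PC9-AMG, 1.44 and 0.574 TPM in PC9-BrM4, and 0.420 and 1.33 TPM in PC9. Its libraries overlapped in each comparison. Over all symbols in the tables, a value of 0 in 1 library and of 10 TPM or more in its replicate occurred 2 times in PC9-AMG, 3 times in PC9-BrM4 and 6 times in PC9.

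The other 67 family members were at or near 0. Of these, 47 were listed at 0 in all 6 libraries: the 22 GAGE genes, the 10 CT45A genes, CTAG1B, MAGEA5, MAGEA9, MAGEB1, MAGEB3, MAGEB5, MAGEB18, PAGE2, PAGE2B, PAGE3, PAGE4, SSX4, SSX9, XAGE3 and XAGE5. Many are near-identical copies, so a 0 listed for a single copy is uncertain. MAGEB6 and XAGE1E reached 1 TPM in 1 library each, at 1.00 TPM in PC9 replicate 1 and 1.04 TPM in PC9-BrM4 replicate 1. The remaining 18 stayed below 1 TPM. Their highest values among MAGE-A genes were 0.625 TPM for MAGEA1, 0.0750 for MAGEA10, 0.0698 for MAGEA8 and 0.0606 for MAGEA9B. For MAGEB genes and MAGEC3 they were 0.698 TPM (MAGEB2), 0.418 (MAGEB4), 0.260 (MAGEB17), 0.164 (MAGEB16), 0.0353 (MAGEB10) and 0.129 (MAGEC3). Among SSX genes the highest values were 0.975 TPM (SSX3), 0.545 (SSX8), 0.523 (SSX6), 0.449 (SSX1) and 0.433 (SSX5). PAGE1 reached 0.695 TPM, PAGE5 0.456 and XAGE1B 0.0864. MAGEB2, which had 0.698 and 0.385 TPM in PC9-BrM4 and was at 0 in the other 4 libraries, and SSX8, which had 0.545 and 0.496 TPM there and 0 elsewhere, were likewise above 0 in PC9-BrM4 alone, at levels too low to be tested; both were picked out after their values were seen.

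The members lay in 6 stretches of chromosome X, and the tested genes within 500 kb of them are given as neighbours. Their counts stand beside 27.8% higher and 27.7% lower over all genes in PC9-AMG against PC9, and 23.4% higher and 23.1% lower in PC9-BrM4 against PC9. Around SSX4B, which was not called, 3 of 14 neighbours rose and 5 fell in PC9-AMG, and 2 rose and 3 fell in PC9-BrM4. MAGEA4 and the other analysed MAGE-A genes except MAGEA11 occupied 151912889 to 152769716 on hg38. Of 8 tested neighbours there, 3 rose and 2 fell in PC9-AMG, with NSDHL, a cholesterol synthesis enzyme, at 0.52 and CETN2, a centriole protein, at -0.53, and GABRA3 and ZNF185 at 0.29 and 0.28. In PC9-BrM4 the largest difference was that of GABRE, a GABA receptor subunit, with 0.168 and 0.230 TPM in PC9-BrM4 against 4.33 and 3.70 TPM in PC9 (log2 -2.06, limma adjusted p = 1.45e-05). CETN2 was also lower there, at -0.34, and ZNF185 was higher, at 0.22. Near MAGEA11 1 of 6 neighbours rose in PC9-AMG (CXorf40B, 0.23) and 1 fell in PC9-BrM4 (IDS, -0.42).

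XAGE2 and the SSX2 copies lay between 52369010 and 52761536, where 3 of 10 neighbours rose in PC9-AMG and 2 fell. TSPYL2, a chromatin regulator, rose most, with 49.1 and 45.7 TPM in PC9-AMG against 23.7 and 22.1 TPM in PC9 (log2 1.02). GPR173 rose by 0.59 and KDM5C by 0.25, while MIR6895, which lies inside KDM5C and is therefore uncertain, was lower, at -0.71. In PC9-BrM4 1 of the 10 rose (TSPYL2, 0.19) and 1 fell (MAGED1, -0.86). MAGEC1 and MAGEC2 lay between 141903856 and 142205290, and their 3 tested neighbours were the sperm protein genes SPANXA1, SPANXA2 and SPANXD. SPANXA1 was lower in PC9-AMG, at -0.70, while SPANXA2 (0.09) and SPANXD (0.03) were not called. SPANXA1 and SPANXA2 were listed at the same coordinates, so the split of TPM between them is uncertain. In PC9-BrM4 0 of the 3 rose and 2 fell (SPANXA1, -0.70, and SPANXD, -0.46). Around CTAG1A and CTAG2, from 154585154 to 154653579, 13 of 29 neighbours rose and 5 fell in PC9-BrM4, and 10 rose and 6 fell in PC9-AMG. In PC9-BrM4 the largest of these differences were 1.33 for MPP1, -0.91 for FAM223B, -0.72 for MIR6858 and 0.58 for SLC10A3. MIR6858 lies inside FAM50A and is uncertain. In PC9-AMG the largest was -0.79 for F8.

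Over the chromosome, 472 other tested X-linked genes had a median log2 difference of -0.08 in PC9-AMG against PC9, with 22.2% higher and 33.7% lower. In PC9-BrM4 against PC9 the median was -0.08, with 18.0% higher and 27.8% lower.

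**Figure D5:**
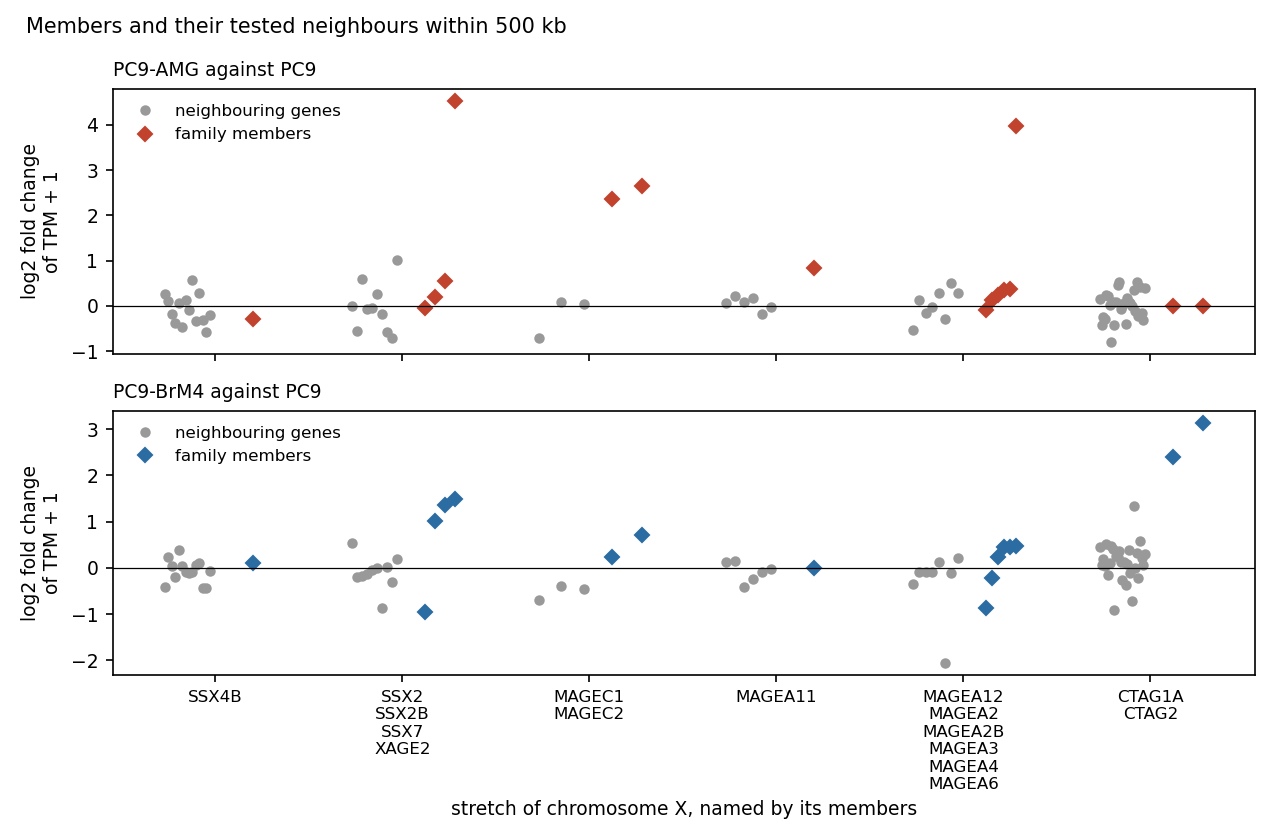
Log2 fold change of TPM + 1 of family members (coloured diamonds) and of tested genes within 500 kb of them (grey points) in the 6 stretches of chromosome X, for PC9-AMG against PC9 (upper panel) and PC9-BrM4 against PC9 (lower panel). MAGEA4 and XAGE2 lie at 3.97 and 4.53 in the upper panel, where the highest neighbour is TSPYL2 at 1.02.

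Other X-linked cancer-testis genes, from a list of 44 that the naming rule did not cover, moved in both directions. Of these, 41 were in the tables, 21 at 0 throughout, and 10 were tested. In PC9-AMG against PC9, 4 rose and 2 fell (SPANXA1, -0.70, and CSAG3, -0.17), with a median of 0.19. Over all tested genes 27.8% were called higher and 27.7% lower in that comparison. SPANXB1, a nuclear envelope protein of sperm, had 171 and 169 TPM in PC9-AMG, against 22.7 and 21.1 TPM in PC9, a log2 rise of 2.90 ± 0.08 (limma adjusted p = 1.49e-06). SPANXC had 19.9 and 23.9 TPM in PC9-AMG, against 6.07 and 8.77 TPM in PC9, and rose by 1.46 ± 0.17. VCX3A and VCX3B, of a family of small basic germ-cell proteins, rose by 1.05 ± 0.12 and 0.81 ± 0.13. In PC9-BrM4 against PC9, 0 of the 10 rose and 6 fell, with a median of -0.40, where 23.4% of all tested genes were called higher and 23.1% lower. SPANXB1 fell to 10.98 and 12.8 TPM in PC9-BrM4, against 22.7 and 21.1 TPM in PC9 (log2 -0.83 ± 0.08, limma adjusted p = 0.000154). SPANXC fell by 0.71, SPANXA1 by 0.70, SPANXD by 0.46 and VCX3B by 0.41. Both families consist of similar copies, so values of single SPANX and VCX genes are uncertain as well.

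Partners and relatives of the MAGE proteins were counted beside the 55.5% and 46.6% of all genes called in PC9-AMG and PC9-BrM4 against PC9. Of 9 tested genes among 11 listed ubiquitin ligase partners, 2 rose and 4 fell in PC9-AMG against PC9, and 4 rose and 4 fell in PC9-BrM4 against PC9, with medians of -0.04 and -0.03. TRIM28, the ligase and corepressor bound by MAGE-A3, MAGE-A6 and MAGE-C2, had 399 and 427 TPM in PC9-AMG, against 255 and 261 TPM in PC9 (log2 0.68 ± 0.05, limma adjusted p = 3.30e-05). In PC9-BrM4 it was slightly lower, at 232 and 237 TPM (log2 -0.14 ± 0.05, limma adjusted p = 0.0397). The SMC5/6 complex subunit NSMCE1 was lower in PC9-AMG, at -0.61, and higher in PC9-BrM4, at 0.19. LNX1 was lower in both sublines, at -0.63 in PC9-AMG and -0.79 in PC9-BrM4, while USP7, a deubiquitinase, was lower in PC9-AMG, at -0.31, and higher in PC9-BrM4, at 0.38. RBX1, a cullin ligase subunit, was lower in both, at -0.51 in PC9-AMG and -0.20 in PC9-BrM4, and TRIM27 was higher in both, at 0.37 and 0.19. RNF166 was higher in PC9-BrM4, at 0.50, and PJA1 was lower there, at -0.28, and neither was called in PC9-AMG. Among 5 tested type II MAGE genes, which most tissues express, MAGED1 had 80.2 and 78.1 TPM in PC9-BrM4, against 150 and 139 TPM in PC9 (log2 -0.86 ± 0.05, limma adjusted p = 2.08e-05). MAGED2 fell by 0.44 in the same comparison, so 2 of the 5 were lower and 0 higher, and in PC9-AMG 1 was higher (MAGEF1, 0.14) and 2 were lower (MAGED1, -0.18, and MAGED2, -0.15).

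Genes of DNA methylation and chromatin silencing were the last list, with 35 of 36 tested. In PC9-AMG against PC9, 7 rose and 12 fell (median -0.04), and in PC9-BrM4 against PC9, 6 rose and 7 fell (median -0.05), where 55.5% and 46.6% of all genes were called. DNMT1, the maintenance methyltransferase, had 86.8 and 89.9 TPM in PC9-AMG, 93.1 and 108 TPM in PC9-BrM4, and 87.6 and 90.9 TPM in PC9, and was not called in either comparison. DNMT3B, a de novo methyltransferase, had 10.3 and 10.02 TPM in PC9-AMG, against 6.08 and 5.85 TPM in PC9 (log2 0.68 ± 0.08, limma adjusted p = 0.000448). UHRF1, which guides DNMT1 to newly copied DNA, was lower in both sublines, at -0.29 in PC9-AMG and -0.42 in PC9-BrM4. HELLS, a chromatin remodeler needed for DNA methylation, was lower in PC9-AMG, at -0.60, and was not called in PC9-BrM4, and CTCF, an insulator protein, was lower in both, at -0.56 in PC9-AMG and -0.22 in PC9-BrM4. MBD3, a subunit of the NuRD complex, was higher in both, at 0.43 in PC9-AMG and 0.53 in PC9-BrM4. The transcriptional repressors ZBTB38 and PCGF6 were higher in both as well, at 0.40 and 0.34 in PC9-AMG and 0.36 and 0.35 in PC9-BrM4.

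CTAGE5, which acts in the export of large cargo from the endoplasmic reticulum, was among the symbols matched by letters but not counted in the families. It had 36.3 and 32.0 TPM in PC9-AMG, 35.9 and 36.8 TPM in PC9-BrM4, and 47.5 and 42.9 TPM in PC9. It was lower in PC9-AMG (log2 -0.40 ± 0.08, limma adjusted p = 0.00369) and in PC9-BrM4 (log2 -0.31 ± 0.08, limma adjusted p = 0.0143), and both calls ended without the filter on low values, the first at 0.0527. The second also ended when PC9 replicate 1 or either PC9-BrM4 library was left out (up to 0.109 over all alternatives). SSX2IP, a centrosomal protein that binds SSX2, had 20.6 and 18.8 TPM in PC9-AMG, 22.9 and 24.0 TPM in PC9-BrM4, and 23.3 and 23.0 TPM in PC9. It was lower in PC9-AMG against PC9 (log2 -0.22, limma adjusted p = 0.0251), a call that 4 of 16 alternatives ended (up to 0.123). Of CTAGE1, CTAGE4, CTAGE6, CTAGE8, CTAGE9 and CTAGE15, which ran from 0.690 to 8.51 TPM, CTAGE4 and CTAGE8 passed as higher in PC9-AMG against PC9, both at 0.31, and both calls ended when either PC9-AMG library or PC9 replicate 2 was left out (adjusted p up to 0.158 and 0.140), that of CTAGE4 also without PC9 replicate 1. In PC9-AMG against PC9-BrM4, CTAGE4 and CTAGE8 were higher, at 0.45 and 0.46, and both calls held in all 16 alternatives. CTAGE9 (0.37, limma adjusted p = 0.0122), CTAGE15 (0.33, limma adjusted p = 0.0292) and CTAGE6 (0.31, limma adjusted p = 0.0391) were higher too, and SSX2IP was lower (-0.24, limma adjusted p = 0.0181). These calls ended in 1, 4, 9 and 3 of the 16 alternatives, with adjusted p of up to 0.0599, 0.118, 0.157 and 0.0932, among them the removal of PC9-AMG replicate 2 for each.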

How the data were processed

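Messenger RNA was prepared from 3 cell lines with TRIzol and a stranded TruSeq kit, per the labels' protocols, and libraries were grouped by the cell line named in the labels. The authors deposited 1 table per library that, per the file headers, lists TPM, FPKM and coverage for each gene. HISAT2 2.1.0, StringTie 1.3.4d, bcl2fastq and build hg38 appear in the submitters' processing notes; annotation release and mapping settings: not given in the sources used here. Tables of PC9-AMG carry EMG in their names and were assigned by the sample records; a series-wide table, whose columns do not carry those labels, was not used here. TPM fixes a library's total, so values are relative.

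Lines of a symbol were summed. Values were taken as log2(TPM + 1), genes with 1 TPM or more in at least 2 libraries were tested, and limma 3.58.1 (R 4.3.3) was fitted to all 6 libraries, with 1 coefficient for each line and a mean-variance trend, adjusted over all 14195 genes by Benjamini and Hochberg, with a threshold of 0.05. The fit was tested on simulated data. Dividing deposited coverage by FPKM gave an estimate of the aligned bases, and read counts are not given, so no counting interval is printed. Replicate pairs had a median absolute log2 difference of 0.0622 to 0.0868, and none was treated as a single library. Each comparison was repeated with another pseudocount, filters, scaling and FPKM, with a replicate block, and without each library. Members and lists were chosen with earlier results of these data known. All analysed members are named, silent ones by name or family, with at most 4 called genes of each list or stretch by size in each comparison with PC9, and for list genes the called value in the other one. After values were seen, TRIM27 was added to complete the ligase partners, and the neighbour rule was extended to counts around SSX4B and to IDS. In the DNA methylation list DNMT1 was added by hand, as was CSAG3 among the other X-linked genes.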

Additional observations from a re-analysis of the deposited data

How the results depend on the processing

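The number of family members called was 10 in PC9-BrM4 against PC9, 9 in PC9-AMG against PC9 and 10 in PC9-AMG against PC9-BrM4. Over 16 alternatives each it ran from 9 to 11, from 8 to 11 and from 8 to 12. The PC9-AMG calls of MAGEA4, XAGE2, MAGEC1, MAGEC2, MAGEA11, MAGEA2, MAGEA3 and MAGEA12 held in every alternative that tested them, 15 of 16 for MAGEA11. Those of CTAG1A, CTAG2, MAGEA2, MAGEA3, MAGEA6, MAGEA12 and MAGEC2 in PC9-BrM4 held in every alternative. Among these, MAGEA4, MAGEC1 and MAGEA11 had passed the filter on low values through PC9-AMG alone, and CTAG1A and CTAG2 through PC9-BrM4 alone. These genes had to differ, so that their calls held is a description and not a test. Direction turned only for members that were not called. MAGEA11 in PC9-BrM4 stood at 0.0966 with quantile normalization and at 0.0210 without PC9 replicate 2, MAGEA2B in PC9-AMG at 0.0642 with only the highest line of a symbol, and SSX2IP in PC9-BrM4 at -0.00713 with FPKM.

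Leaving out 1 library moved log2 differences against PC9 in PC9-BrM4 from -1.57 to 3.61 for SSX2B, -2.66 to 0.77 for SSX2, -0.25 to 0.46 for SSX4B, -0.0465 to 0.0210 for MAGEA11 and -0.0151 to 0.0520 for SSX2IP. In PC9-AMG against PC9 they ran from -1.94 to 2.32 for SSX2B, -0.33 to 0.26 for SSX2, -0.86 to 0.31 for SSX4B and -0.52 to 0.32 for MAGEA2B. In PC9-AMG against PC9-BrM4 they ran from -3.42 to 1.76 for SSX2B, -0.81 to 2.62 for SSX2, -0.97 to 0.20 for SSX4B and -0.19 to 0.0801 for CTAGE1. The cause was not tested.

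Samples of different lines share only a replicate number: deviations of same-numbered libraries correlated at -0.07, -0.03 and -0.06. With that number as a block, 10 family members were called in PC9-BrM4 and 9 in PC9-AMG against PC9, and 10 between the sublines. Over all genes 6126, 7457 and 7599 were called with the block, and 6608, 7882 and 7962 without it. With 2 libraries per line and no read counts, the precision of levels below 1 TPM is unknown. Where a library was left out, the lone library of its line was assumed to vary like the other lines.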

Other observations

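Autosomal cancer-testis and germ-line genes were also measured. Of 50 listed genes 22 were at 0 in all libraries and 7 were tested. In PC9-AMG against PC9, 3 rose and 4 fell, and in PC9-BrM4 against PC9, 1 rose and 1 fell. Over all tested genes 55.5% and 46.6% were called in these comparisons. CABYR, a calcium-binding protein of the sperm tail, had 15.7 and 16.0 TPM in PC9-AMG, 3.93 and 2.81 TPM in PC9-BrM4, and 11.4 and 10.6 TPM in PC9. It was higher in PC9-AMG by 0.49 ± 0.12 on the log2 scale (limma adjusted p = 0.0118) and lower in PC9-BrM4, at -1.47 ± 0.12 (limma adjusted p = 0.000108). SPA17, a sperm surface protein, had 13.4 and 13.6 TPM in PC9-AMG, against 32.2 and 25.9 TPM in PC9 (log2 -1.05 ± 0.10, limma adjusted p = 0.000122). SYCE2, a component of the synaptonemal complex, and TEX15, needed for meiosis and transposon silencing in mouse germ cells, were lower in PC9-AMG as well, at -1.11 and -0.76. DDX43, an RNA helicase, had 7.48 and 7.03 TPM in PC9-AMG, against 4.77 and 4.71 TPM in PC9 (log2 0.52, limma adjusted p = 0.00210). IGF2BP3, an oncofetal RNA-binding protein, was higher in both sublines, at 0.16 in PC9-AMG and 0.32 in PC9-BrM4.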
